A study of Mus musculus with 8 samples.

Results

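The 9 genes described here encode receptors and receptor-like proteins for estrogens, progestins and corticosteroids: the nuclear estrogen receptors Esr1 and Esr2, the glucocorticoid receptor Nr3c1, the mineralocorticoid receptor Nr3c2, the nuclear progesterone receptor Pgr, the membrane estrogen receptor Gper1, and the membrane-associated progestin-binding proteins Pgrmc1, Pgrmc2 and Paqr8. They were chosen by gene symbol, and all 9 were found among the 29442 genes of the deposited count table. Their transcripts were measured by RNA-seq of hippocampal polyA RNA from female C57BL/6 J mice, which were 6–8 weeks old when selected for the study. One group of 4 had received DHEA, an adrenal precursor of androgens and estrogens, at 30 mg/kg/day by subcutaneous injection in the abdomen for 21 days, and the other group of 4 had received sesame oil, the vehicle, in the same way. All mice had gone through forced swim, tail suspension and open field tests before the tissue was taken. Per the methods these tests fell in metestrus or diestrus, and no estrous stage is given there for the sequenced tissue. The methods place the dissection in the ventral hippocampus, whereas the labels give only hippocampus. The libraries labelled DHEA are HipR3, HipR4, HipR7 and HipR11, and those labelled sesame oil are HipR5, HipR9, HipR10 and HipR16. Values by library are always given in these orders.

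These groups are called the DHEA-labelled and the oil-labelled libraries. The DHEA-labelled libraries held 35748416 to 38038361 reads on genes (median 36499420), and the oil-labelled libraries held 31483772 to 35418297 (median 32933563), so the former were all deeper. Levels of one gene across libraries are given as TMM-normalized CPM, reads on the gene scaled to a common library total, and 3 reads corresponded to less than 0.0953 CPM in each library. The direction of every difference follows the deposited treatment labels. The gene list published with the study runs in the reverse direction, so the groups are named by their labels throughout. If the labels were exchanged, every sign given here would turn. Nothing in the labels ties the libraries to separate animals, litters or batches, and the p-values measure only the spread between these libraries.

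Steroid receptors of the nuclear family wait in the cytoplasm or nucleus bound to heat shock chaperones, and after binding hormone they attach to DNA response elements and recruit coregulators. In the hippocampus the mineralocorticoid receptor binds corticosterone tightly and is largely occupied at rest, whereas the glucocorticoid receptor has lower affinity and fills during stress and at the daily hormone peak. The membrane-associated members lie outside the nuclear family. Gper1 is a G protein-coupled receptor for estradiol, and Paqr8 is a progestin receptor of the adiponectin receptor family. Pgrmc1 and Pgrmc2 are haem-binding proteins related to cytochrome b5.

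Several of these genes belong to related pairs, so the longest exact stretch that their transcripts shared was searched for in the GENCODE vM21 transcripts, to show whether a read could be assigned to the wrong member. The longest run shared by any pair of members was 24 bases, in the coding sequences of Nr3c2 and Pgr. The coding runs shared by that pair and by the other printed pairs, Pgrmc1 with Pgrmc2 (18 bases) and Esr1 with Esr2 (17 bases, the first of 2 runs of that length in alphabetical order), read as follows in lower case, 5′ to 3′.
Nr3c2 and Pgr: tgtgctggaagaaatgactgcatt
Pgrmc1 and Pgrmc2: ttcgacgtgaccaaaggc
Esr1 and Esr2: agaagcattcaaggaca
Each of these runs is far shorter than a sequencing read, so the members do not share reads as near-identical copies would.

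Promoter sequence was available from RefSeq (GRCm38.p6) for 8 of the 9 members, in 10 windows running from 250 bases before to 50 bases after a transcription start. The upstream 250 bases of the most and the least abundant member are printed here, because these genes mark the ends of the range of levels described next. Capitals mark the GC box GGGCGG on either strand, a short motif bound by Sp-family factors.
Pgrmc1, chrX:36597943-36598192, plus strand: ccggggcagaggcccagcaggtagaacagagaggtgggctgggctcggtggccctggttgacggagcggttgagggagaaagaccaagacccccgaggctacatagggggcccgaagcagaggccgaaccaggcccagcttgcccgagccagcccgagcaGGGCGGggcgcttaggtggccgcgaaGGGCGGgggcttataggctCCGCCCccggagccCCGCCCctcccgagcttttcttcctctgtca
Esr2, chr12:76177260-76177509, minus strand: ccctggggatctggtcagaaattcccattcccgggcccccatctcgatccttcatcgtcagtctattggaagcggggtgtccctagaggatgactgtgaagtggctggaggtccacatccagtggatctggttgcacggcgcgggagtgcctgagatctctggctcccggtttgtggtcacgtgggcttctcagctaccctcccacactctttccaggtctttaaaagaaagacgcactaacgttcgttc
Over the full 300-base windows, Pgrmc1 had 69.0% GC, 24 CpG dinucleotides and 5 GC boxes, of which 4 lie in the stretch printed. Esr2 had 56.0% GC, 14 CpG dinucleotides and 0 GC boxes. Among 32851 RefSeq promoter windows of the same length, the median was 52.67% GC and 7 CpG dinucleotides, and 35.7% held a GC box. Pgrmc2 (25 CpG, 3 GC boxes) and Nr3c2 (17 CpG, 3 GC boxes) were also rich in both, whereas Pgr and Gper1 each had 6 CpG and 1 GC box. The windows of Paqr8, the second most abundant member, had 19 and 6 CpG with 1 GC box each, and those of Esr1 had 6 and 12 CpG with 0 GC boxes, so these features did not order the members by level. The consensus glucocorticoid response element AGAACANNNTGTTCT and the consensus estrogen response element GGTCANNNTGACC, searched on both strands, were in 0 of the 10 windows. They were in 0.00913% and 0.07% of all windows, so these letters are rare in any promoter of this length. The short arms from which these elements are built were common in all windows, AGAACA in 19.0% and GGTCA in 40.5%, and were found in those of Pgrmc1 and Paqr8 (AGAACA) and of Esr2, Nr3c2, Esr1 and Paqr8 (GGTCA). A match to a motif is a description of the sequence only.

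The transcripts of the 9 receptors spanned more than 3 orders of magnitude, with the membrane-associated progestin-binding proteins and the corticosteroid receptors high and the estrogen receptors low. Levels between genes were compared per length, on the deposited FPKM scale, as the median over all 8 libraries. Pgrmc1 was highest at 143 FPKM, above 99.1% of the 27612 genes with at least 1 count, followed by Paqr8 at 34.8 FPKM and Pgrmc2 at 25.7 FPKM. Nr3c2 was next at 21.4 FPKM and Nr3c1 at 13.2 FPKM. Pgr at 0.898 FPKM and Gper1 at 0.825 FPKM were far lower, above 54.0% and 53.4% of genes. Esr1 stood at 0.265 FPKM and Esr2 was lowest at 0.0555 FPKM, above 34.4% of genes. Most steps in this order were larger than the spread between libraries, since the ranges of neighbouring receptors did not meet. The exceptions were Pgrmc2 with Nr3c2, whose ranges overlapped although Pgrmc2 was higher in 8 of 8 libraries, and Pgr with Gper1, where Pgr was higher in 5 of 8.

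**Figure D1:**
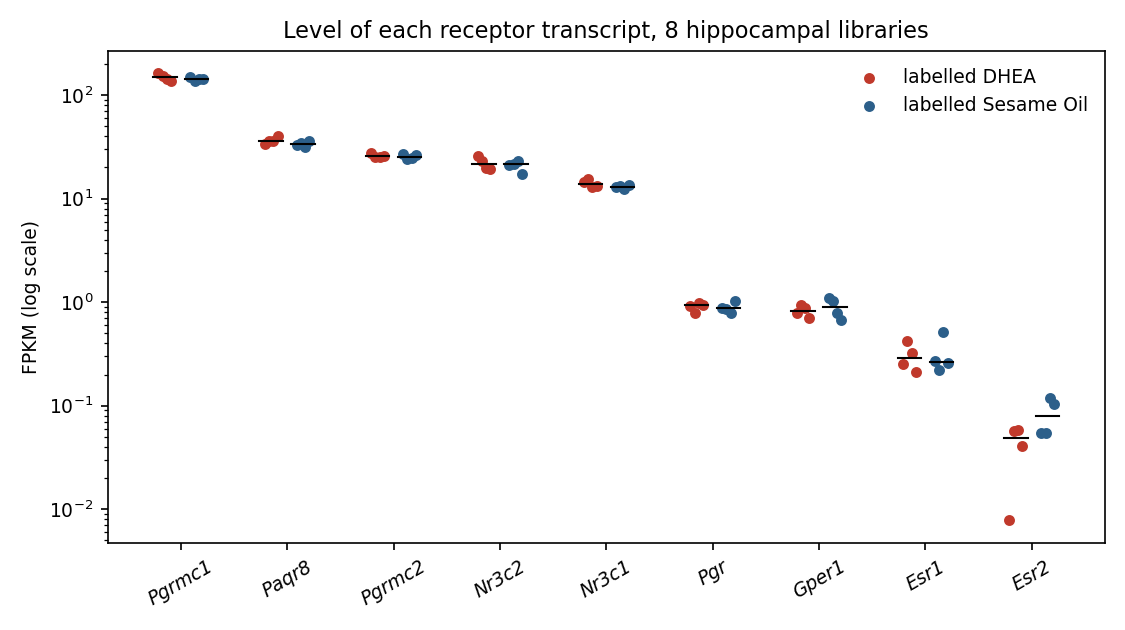
Deposited FPKM of each receptor (log scale) in the 4 DHEA-labelled libraries (red points) and the 4 labelled sesame oil (blue points), with black bars at the group medians and genes ordered by their median over all libraries. Pgrmc1 sits between 136 and 163 FPKM in every library, whereas Esr2 lies between 0.0078 and 0.118 FPKM, and for each receptor the points of both groups overlap.

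The 3 receptors with the fewest reads varied most between libraries. Over the 8 libraries the coefficient of variation of TMM-normalized CPM was 5.86% for Pgrmc2, 7.73% for Pgrmc1, 7.83% for Paqr8, 8.97% for Pgr, 9.27% for Nr3c1 and 13.5% for Nr3c2. It was 17.7% for Gper1, 35.2% for Esr1 and 55.9% for Esr2. The last 3 rest on few reads, 54 to 91 per library for Gper1, 64 to 161 for Esr1 and 1 to 14 for Esr2.

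Whether DHEA changed receptor transcripts was addressed with edgeR's quasi-likelihood test over all genes, with 4 libraries in each group. None of the 9 receptors differed after Benjamini-Hochberg adjustment, and the smallest adjusted p among them was 0.487. Paqr8 alone had an unadjusted p under 0.05, so 1 of 9 receptors (11.1%) passed against 9.31% of all 27612 genes tested and 15.7% of the 12780 genes averaging 100 reads or more per library. Log2 fold changes, given as DHEA-labelled libraries minus oil-labelled libraries, were positive for 6 receptors and negative for 3, with a median of 0.06 beside 0.0079 over all genes tested. For 0 of 9 receptors was each library of one group above each library of the other, where 5.04% of all genes had such groups (2.42% higher and 2.62% lower in the DHEA-labelled libraries), as did 8.46% of genes averaging 100 reads or more. With all 8 libraries edgeR called 0 of 27612 genes at an adjusted p under 0.05 (0%, smallest 0.0569), while 2571 had an unadjusted p under 0.05 and DESeq2 called 153. The edgeR count was 4 with robust moderation, and without single libraries it ranged from 0 to 93, with 93 without HipR7 and 12 without HipR11.

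The intervals limit how large a change could have gone unseen. For the 6 receptors averaging 100 reads or more, Nr3c1, Nr3c2, Pgr, Pgrmc1, Pgrmc2 and Paqr8, the 95% intervals of the fold change lay between 0.911 and 1.25. For Esr1 the interval was 0.642 to 1.46, for Gper1 0.666 to 1.32 and for Esr2 0.200 to 1.29, so a 2-fold decrease of Esr2 lies within its interval. In simulated counts for this comparison over 27612 genes, edgeR recovered 97% of genes with a 2-fold change and 80% of genes with a 1.5-fold change among those averaging 100 reads or more, at an adjusted p under 0.05, and it also called 55 unchanged genes. The simulated counts were drawn gene by gene, without trends shared within a library such as that with GC content. These shares therefore do not say how large a change would be found in the real libraries. All RNA was from bulk tissue, in which fewer cells of a type and less RNA per cell cannot be told apart.

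**Figure D2:**
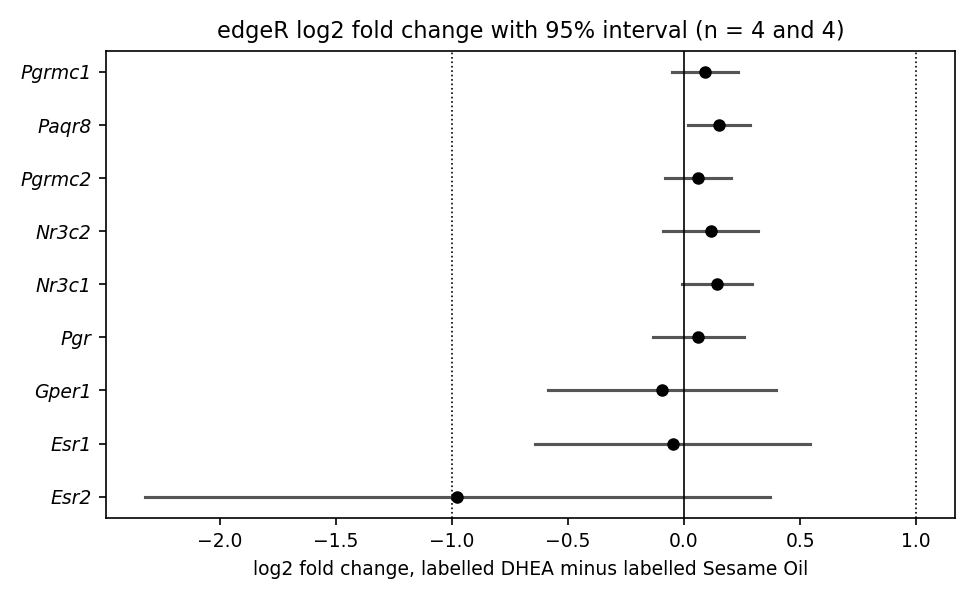
Log2 fold change of each receptor (DHEA-labelled libraries minus the oil-labelled libraries, n = 4 and 4) from edgeR, with horizontal bars for the 95% interval and dotted lines at a 2-fold change. Intervals of the abundant receptors are narrow and lie near 0, that of Paqr8 runs from 0.02 to 0.28, and that of Esr2 reaches from -2.32 to 0.37.

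The corticosteroid receptors were both abundant and their fitted levels differed between the groups by 1.10-fold for Nr3c1 and 1.08-fold for Nr3c2. Nr3c1, which turns on glucocorticoid-responsive genes during stress, was at 129, 139.9, 112 and 115 CPM in the DHEA-labelled libraries and at 113, 113, 107 and 118 CPM in the oil-labelled libraries. HipR3 and HipR4 were above every other library, and the remaining values of the groups were intermixed. The means were 124 ± 13.0 and 112 ± 4.45 CPM (SD, n = 4 each), a log2 fold change of 0.14 ± 0.07 (SE) with an unadjusted edgeR p of 0.0638 (adjusted p = 0.558). Leaving out HipR7 or HipR11, the DHEA-labelled libraries with the lowest Nr3c1, gave unadjusted edgeR p-values of 0.0167 and 0.0274. Without HipR4 the log2 fold change was 0.07 and p was 0.293, and with library trends in GC content corrected it was 0.08 with p at 0.231.

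Nr3c2, the receptor occupied at basal corticosterone, was at 237, 213, 177 and 170.4 CPM in the DHEA-labelled libraries. In the oil-labelled libraries it was at 186, 191, 203 and 155 CPM. HipR3 and HipR4 were again highest, and HipR16 was lowest. The log2 fold change of Nr3c2 was 0.11 ± 0.10 (SE, edgeR adjusted p = 0.666). Without HipR3 it was 0.02, and without HipR16 it was 0.03. HipR16 also had the lowest summed level of 5 dentate granule cell markers, 210.0 CPM against 231 to 310.3 CPM in the other libraries, and the part of this difference in the Nr3c2 value was not tested.

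The balance of the corticosteroid receptors within a library is free of library size. Nr3c2 exceeded Nr3c1 in all 8 libraries, by a ratio of FPKM of 1.79, 1.48, 1.54 and 1.45 in the DHEA-labelled libraries and 1.61, 1.66, 1.86 and 1.29 in the oil-labelled libraries. The highest and the lowest ratio were both in oil-labelled libraries, HipR10 and HipR16. The mean ratio was 1.56 ± 0.152 and 1.60 ± 0.237 (SD, n = 4 each), a log2 difference of -0.03 ± 0.13 (SE; two-sided exact permutation test over 70 allocations, p = 0.857, adjusted p = 0.857 over the 3 ratios compared). Leaving out HipR11 or HipR10 turned the sign of this small difference, to 0.0072 and 0.047.

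Among the progestin receptors, Paqr8 showed the difference with the smallest p. Paqr8, a membrane progestin receptor enriched in brain, was at 188, 206, 199 and 218 CPM in the DHEA-labelled libraries and at 178, 184, 171 and 196 CPM in the oil-labelled libraries. The 3 highest values were all in DHEA-labelled libraries, and the groups overlapped because HipR16 (sesame oil) exceeded HipR3 (DHEA). The means were 202 ± 12.4 and 183 ± 10.6 CPM (SD, n = 4 each), a 1.11-fold difference with a 95% interval of 1.01 to 1.22. The log2 fold change was 0.15 ± 0.06 (SE) with an unadjusted edgeR p of 0.0304 (adjusted p = 0.487), and a two-sided exact permutation test on CPM gave p = 0.0571. Leaving out HipR4, HipR11, HipR5, HipR10 or HipR9 raised the edgeR p to 0.0565, 0.0962, 0.0778, 0.108 and 0.0508, with log2 fold changes of 0.11 to 0.18 over all 8 omissions. When library trends with GC content were corrected, the unadjusted edgeR p was 0.0689, and limma on the FPKM values gave 0.0812.

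Pgrmc1, which binds haem and stabilizes cytochrome P450 enzymes, was at 312, 296, 266 and 252 CPM in the DHEA-labelled libraries and at 273, 250.3, 266 and 268 CPM in the oil-labelled libraries. HipR3 and HipR4 were above the others, and HipR11 was close to the lowest value. Pgrmc1 had a log2 fold change of 0.09 ± 0.07 (SE, edgeR adjusted p = 0.666), and its size depended on single libraries. It was 0.04 without HipR3 (unadjusted edgeR p of 0.588), 0.06 without HipR4 (p of 0.414) and 0.14 without HipR11 (p of 0.0461). Its relative Pgrmc2, a haem chaperone of the same family, was at 85.3, 78.1, 75.9 and 77.2 CPM and at 80.4, 70.6, 73.0 and 79.4 CPM in the respective groups. HipR3 was highest and HipR9 lowest, and the other values were intermixed (log2 fold change 0.06 ± 0.07 (SE), edgeR adjusted p = 0.721). Pgrmc2 ran at 0.176 ± 0.0114 of the FPKM of Pgrmc1 in the DHEA-labelled libraries and at 0.178 ± 0.00658 in the oil-labelled libraries (SD, n = 4 each). This ratio stayed between 0.164 and 0.191 in all 8 libraries, and its log2 difference was -0.02 ± 0.05 (SE; two-sided exact permutation test, p = 0.686, adjusted p = 0.857). Without HipR4 the difference was 0.0068.

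Pgr, the nuclear progesterone receptor and a gene that estrogen induces in many tissues, was at 25.8, 22.4, 26.7 and 25.4 CPM in the DHEA-labelled libraries and at 23.7, 23.1, 21.5 and 27.8 CPM in the oil-labelled libraries. The highest and the lowest value were both labelled sesame oil. Pgr had a log2 fold change of 0.06 ± 0.09 (SE, edgeR adjusted p = 0.823), with a 95% interval of -0.13 to 0.26, and omission of single libraries moved it between 0.01 and 0.13.

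The estrogen receptors were the least abundant members, and the levels of each overlapped between the groups. Esr1, the main nuclear estrogen receptor of the reproductive axis, was at 2.26, 3.79, 2.80 and 1.83 CPM in the DHEA-labelled libraries and at 2.32, 1.90, 4.51 and 2.28 CPM in the oil-labelled libraries. HipR10 (sesame oil) and HipR4 (DHEA) were high, and the other libraries lay within 1.83 to 2.80 CPM. For Esr1 the log2 fold change was -0.05 ± 0.28 (SE, edgeR adjusted p = 0.977). Its sign depended on single libraries: without HipR10 it was 0.30, without HipR11 0.09 and without HipR3 0.02. HipR10 also stood out for anterior pituitary transcripts, whose 8 markers summed to 30.3 CPM there and to 1.85 to 6.91 CPM in the other libraries. HipR4, with the second highest Esr1, had the lowest pituitary sum. The part of pituitary RNA in the Esr1 value of HipR10 was not tested.

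Gper1, the membrane receptor for estradiol, was at 2.02, 2.47, 2.19 and 1.75 CPM in the DHEA-labelled libraries and at 2.75, 2.58, 1.96 and 1.71 CPM in the oil-labelled libraries. The oil-labelled libraries held both the highest and the lowest values. Its log2 fold change was -0.10 ± 0.23 (SE, edgeR adjusted p = 0.900), and without HipR5 it was 0.015.

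Esr2, the other nuclear estrogen receptor, was counted by 1, 7, 7 and 5 reads in the DHEA-labelled libraries and by 6, 6, 14 and 11 reads in the oil-labelled libraries. This corresponded to 0.0269, 0.196, 0.194 and 0.137 CPM against 0.181, 0.178, 0.393 and 0.349 CPM. HipR10 and HipR16 were highest and HipR3 lowest, and the groups overlapped. For Esr2 the log2 fold change was -0.98 ± 0.64 (SE, edgeR adjusted p = 0.645). It was -0.64 without HipR3 and -0.06 on the scale of log2(FPKM + 1), which understates changes of genes this low.

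Of the 3 ratios compared, that of Esr2 to Esr1 was the one in which the groups did not overlap. Esr2 was at 0.0310, 0.135, 0.181 and 0.194 of the FPKM of Esr1 in the DHEA-labelled libraries. In the oil-labelled libraries the ratios were 0.203, 0.244, 0.227 and 0.398. The means were 0.135 ± 0.0740 and 0.268 ± 0.0884 (SD, n = 4 each), a log2 difference of -1.09 ± 0.55 (SE). A two-sided exact permutation test gave p = 0.0286, the smallest p that 4 against 4 allow, and 0.0857 after adjustment over the 3 ratios. The groups were separated by a gap smaller than counting error. In HipR11, the highest DHEA-labelled library, Esr2 made up 5 of 72 reads on either gene (6.94%, 95% Clopper-Pearson interval 2.29 to 15.5%), and in HipR5, the lowest labelled sesame oil, 6 of 83 reads (7.23%, 2.70 to 15.1%). Summed over libraries the share was 20 of 407 reads (4.91%, 3.03 to 7.49%) against 37 of 411 reads (9.002%, 6.42 to 12.2%). These intervals cover counting error only. Without HipR3, which held 1 Esr2 read, the log2 difference was -0.60. With 0.1 added to each FPKM the log2 difference was -0.34 (two-sided exact permutation test, p = 0.171).

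**Figure D3:**
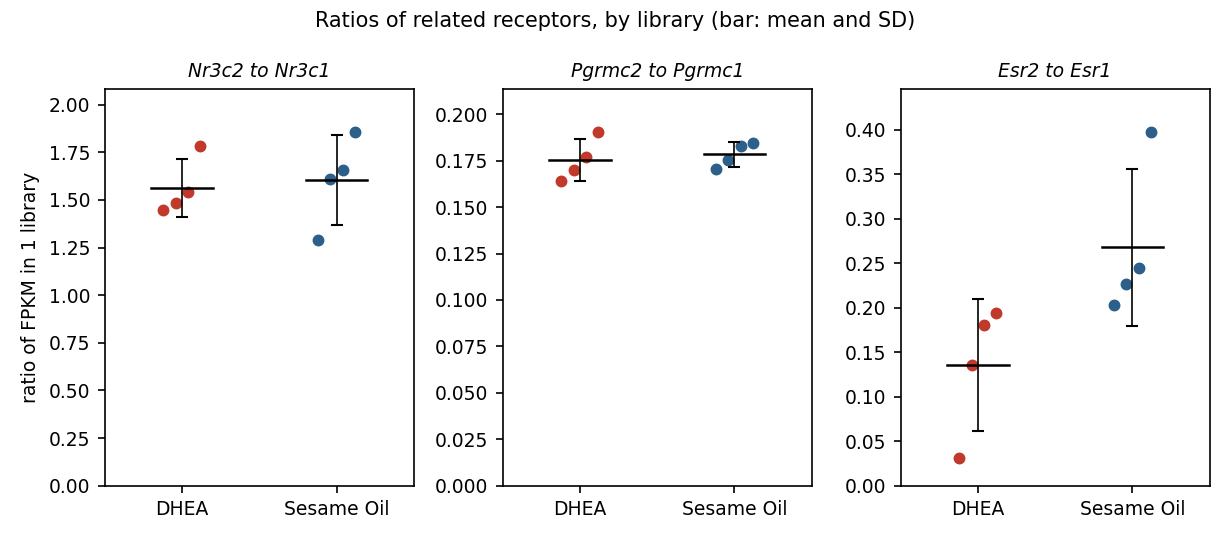
Ratio of FPKM of related receptors within each library, for Nr3c2 to Nr3c1, Pgrmc2 to Pgrmc1 and Esr2 to Esr1, in DHEA-labelled libraries (red) and sesame oil (blue), with a horizontal bar at the mean and whiskers of 1 SD (n = 4). The groups overlap for the first 2 ratios, while for Esr2 to Esr1 the highest DHEA-labelled library, at 0.194, lies just under the lowest labelled sesame oil, at 0.203.

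When single libraries were left out, Esr1 and Esr2 moved over the widest log2 ranges. Nr3c2, Pgr and Pgrmc1 moved less in log2 units, but by much of their own small fold changes. Over the 8 omissions the log2 fold change of Nr3c1 ranged from 0.07 to 0.19, that of Nr3c2 from 0.02 to 0.18, that of Pgrmc1 from 0.04 to 0.14, and that of Pgrmc2 from 0.02 to 0.09. Pgr ranged from 0.01 to 0.13, Paqr8 from 0.11 to 0.18 and Gper1 from -0.21 to 0.015. Esr1 ranged from -0.27 to 0.30 and Esr2 from -1.19 to -0.64. No receptor reached an adjusted p under 0.05 by edgeR in any omission.

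**Figure D4:**
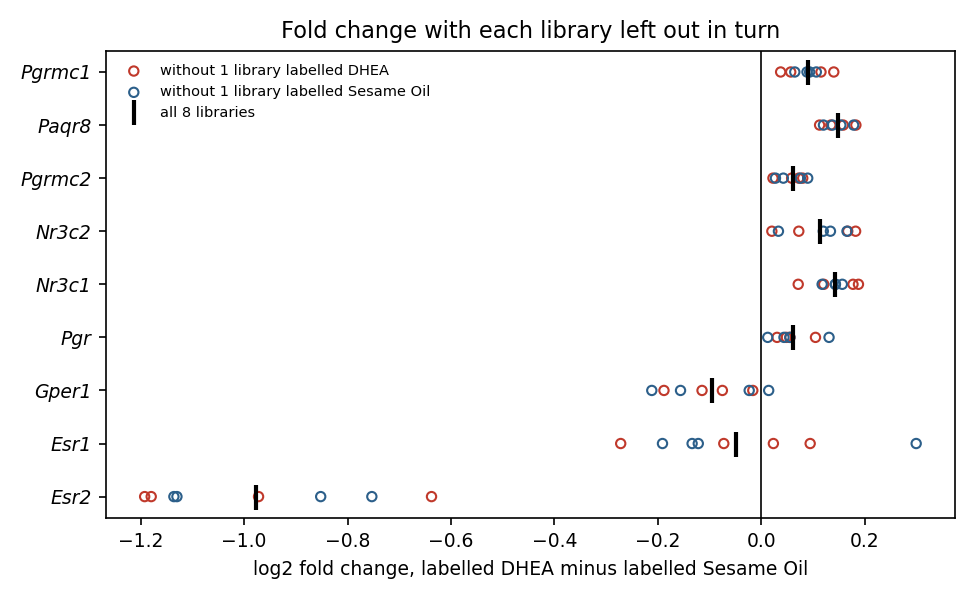
Log2 fold change of each receptor (DHEA-labelled libraries minus sesame oil) with all 8 libraries (black bars) and after omission of each single library (open circles, red where a DHEA-labelled library was left out and blue where one labelled sesame oil was). Esr1 falls on both sides of 0, with its highest value of 0.30 when HipR10 is left out, Gper1 reaches 0.015, and the other receptors keep their sign.

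Genes whose levels followed each abundant receptor most closely across the 8 libraries were sought among 12779 other genes averaging 100 reads or more. The libraries share depth, dissection and labels with both genes of a pair, so the correlations describe these libraries only. With so many genes searched over 8 libraries, the highest correlations can be this large by chance, and no p was computed for them. Nr3c1 was closest to Atp5l and Sdhb (Pearson r of log2 CPM 0.993 and 0.986), which encode subunits of mitochondrial ATP synthase and succinate dehydrogenase. Nr3c2 was closest to Bub3 (0.955), a mitotic checkpoint gene, and Ndst4 (0.949), a heparan sulfate modifying enzyme. Pgr was closest to Cdh12 (0.950), a cadherin, and Kcna2 (0.932), a potassium channel. Pgrmc1 was closest to Ranbp6 (0.990) and Vstm2a (0.980), and Pgrmc2 to Tgoln1 (0.969), a trans-Golgi protein, and Arl4c (0.955). Paqr8 was closest to Arhgef10l (0.962) and Nfkbia (0.960), the latter an inhibitor of NF-kappa B that glucocorticoids induce.

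The wider receptor pathway was described by 7 lists holding 109 genes, of which 26 had an unadjusted edgeR p under 0.05 and 0 an adjusted p under 0.05. Without HipR5 the count was 16, where 6.53% of all genes passed in place of 9.31%, and the highest count over the omissions, 32, came without HipR7, where 13.4% passed. The counts of single lists under omissions are read with the same shift of the whole table. Counts in each direction are read against all genes tested, where 4.82% had an unadjusted p under 0.05 and a higher level with the DHEA label and 4.49% a lower one. Among genes averaging 100 reads or more these shares were 8.08% and 7.6%.

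Of 24 nuclear receptor relatives, 2 were higher (8.33%) and 3 were lower (12.5%) with the DHEA label at that threshold, with a median log2 fold change of -0.08. Ppara, a fatty acid sensor, was at 7.24, 6.03, 7.77 and 8.70 CPM against 5.70, 5.43, 5.72 and 6.03 CPM. Each DHEA-labelled library was above each oil-labelled library, HipR4 only barely so. Groups did not overlap for 1 of the 24 relatives, beside 5.04% of all genes and 8.46% of those averaging 100 reads or more. The log2 fold change of Ppara was 0.38 (edgeR adjusted p = 0.411), and that of the clock-linked receptor Rora was 0.23 (adjusted p = 0.485). Lower were Nr4a2, an activity-induced orphan receptor (-0.32, edgeR adjusted p = 0.322), Nr1d1, a repressor of the circadian clock (-0.20, adjusted p = 0.336), and Nr4a3 (-0.17, adjusted p = 0.528). The most abundant relative was the thyroid hormone receptor Thra at 126 FPKM, with a log2 fold change of -0.03. The list count was 3 under DESeq2 and 3 without HipR5.

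Among 10 relatives of the membrane progestin and haem-binding receptors, 1 was higher and 1 lower. Adipor2, an adiponectin receptor of the same family as Paqr8, was at 59.0, 54.3, 53.0 and 75.2 CPM in the DHEA-labelled libraries and at 51.3, 50.4, 48.2 and 49.1 CPM in the oil-labelled libraries. The groups did not overlap, with HipR11 far above the rest. Such groups were found for 1 of the 10 relatives, beside 5.04% of all genes and 8.46% of those averaging 100 reads or more. The log2 fold change of Adipor2 was 0.28 (edgeR adjusted p = 0.340), and that of Paqr3, a Golgi member of the family, was -0.17 (adjusted p = 0.531). The count of 2 became 1 when any library but HipR3 or HipR9 was left out. Paqr7, another membrane progestin receptor, had a log2 fold change of -0.06, and Nenf, a neurotrophic relative of Pgrmc1 and the most abundant of the list at 30.6 FPKM, one of 0.06.

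Of 17 chaperones and co-chaperones, 0 were higher and 2 lower (11.8%). They were Stip1, which links Hsp70 to Hsp90 (-0.17, edgeR adjusted p = 0.531), and Dnajb1, an Hsp70 partner (-0.19, adjusted p = 0.531), and the median was -0.02. Hsp90ab1, the constitutive Hsp90, was the most abundant at 643 FPKM with a log2 fold change of -0.06. Fkbp5, a co-chaperone that glucocorticoids induce and that lowers receptor affinity, was at 0.14 ± 0.09 (SE, edgeR adjusted p = 0.643), and the Hsp90 co-chaperone Ptges3 was at 0.15 (adjusted p = 0.553). The count of chaperones was 0 under DESeq2, after GC correction, and without HipR5 or HipR16, and it was 4 without HipR4.

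Of 18 receptor coregulators, 0 were higher and 5 were lower with the DHEA label (27.8%), with 14 of 18 log2 fold changes negative and a median log2 fold change of -0.10. Smarca4, the ATPase of the chromatin remodelling complex that nuclear receptors recruit, was at 132, 122, 132 and 127 CPM against 159, 148, 151 and 149.6 CPM. Every DHEA-labelled library was below every oil-labelled library (log2 fold change -0.24 ± 0.06 (SE), edgeR adjusted p = 0.240). Also lower were the coactivator Ncoa3, the acetyltransferase Crebbp and Rbfox2, an RNA-binding protein reported as a coregulator, at -0.17 to -0.19. Groups did not overlap for 5 of the 18, against 5.04% of all genes and 8.46% of those averaging 100 reads or more. Among them were Ncor1 (log2 fold change -0.10), Carm1 (-0.10) and Nrip1 (0.12), whose unadjusted edgeR p did not pass. The count of 5 was 3 without HipR3, HipR4 or HipR10, 9 without HipR7, and 8 after GC correction, fits in which 7.08%, 7.26%, 7.48%, 13.4% and 8.55% of all genes passed.

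Of 20 genes that corticosteroids induce, 8 were higher (40%) and 0 were lower with the DHEA label. Log2 fold changes were positive for 17 of the 20, with a median of 0.31. The list was chosen with earlier results of these libraries known, so its count is not independent evidence. Pdk4, which limits pyruvate oxidation, was at 12.3, 13.6, 15.1 and 16.6 CPM against 9.63, 11.03, 9.78 and 9.96 CPM. Its groups did not overlap (0.51 ± 0.11 (SE), edgeR adjusted p = 0.230), which held for 1 of the 20 genes. Such groups were found for 5.04% of all genes and 8.46% of those averaging 100 reads or more. Nfkbia was at 14.6, 16.7, 15.6 and 21.2 CPM against 12.4, 11.5, 11.02 and 15.2 CPM, where HipR16 alone came above HipR3 (0.45 ± 0.13 (SE), edgeR adjusted p = 0.293). Mt2, a metallothionein and the most abundant of the list at 151 FPKM, was at 87.4, 108, 88.5 and 82.5 CPM against 47.3, 83.5, 76.5 and 65.8 CPM (0.43 ± 0.13 (SE), edgeR adjusted p = 0.293). The other 5 were Tsc22d3, Sult1a1, Ddit4, Klf9 and Lcn2, of which Lcn2 had the highest log2 fold change, 1.75, on a mean of 88.4 reads. Others of the list did not pass, among them Per1 (-0.12, edgeR adjusted p = 0.747), Dusp1 (-0.21, adjusted p = 0.666) and Fkbp5. The count was 5 without HipR9 and 5 to 11 over all omissions.

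Of 12 genes that estrogens or progestins induce, 0 were higher and 2 lower (16.7%), with a median of -0.07. Oxtr, the oxytocin receptor, was at 7.27, 7.63, 7.77 and 7.47 CPM in the DHEA-labelled libraries and at 10.5, 8.18, 9.81 and 9.52 CPM in the oil-labelled libraries. The DHEA-labelled libraries were close together and all below the others (-0.34 ± 0.12 (SE), edgeR adjusted p = 0.394). Groups did not overlap for 1 of the 12 genes, beside 5.04% of all genes and 8.46% of those averaging 100 reads or more. Xbp1, a transcription factor of the unfolded protein response, had a log2 fold change of -0.29 (edgeR adjusted p = 0.388), and the lysosomal protease Ctsd, the most abundant of the list, one of 0.13 (adjusted p = 0.637). Prlr, the prolactin receptor, ranged from 7.32 CPM in HipR4 to 112 CPM in HipR3, the libraries in which choroid plexus markers were lowest and highest. The count was 0 without HipR5 and 4 without HipR4.

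Of 9 genes for enzymes and transporters of corticosteroids or for corticotropin-releasing hormone (CRH), its receptors and its binding protein, 2 were higher and 0 lower. Abcb1a, an efflux pump of the blood-brain barrier, had a log2 fold change of 0.24 (edgeR adjusted p = 0.381), and Hsd11b1, which regenerates active corticosterone within cells, one of 0.21 (adjusted p = 0.531). Crhr1, a receptor for CRH (-0.37, edgeR adjusted p = 0.615), and Crhbp, which binds the same peptide (-0.17, adjusted p = 0.645), did not pass. The count was 1 under DESeq2, with a minimum of 10 counts, after GC correction, and without HipR4, HipR5 or HipR16. It was 3 without HipR7, HipR10 or HipR9.

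**Figure D5:**
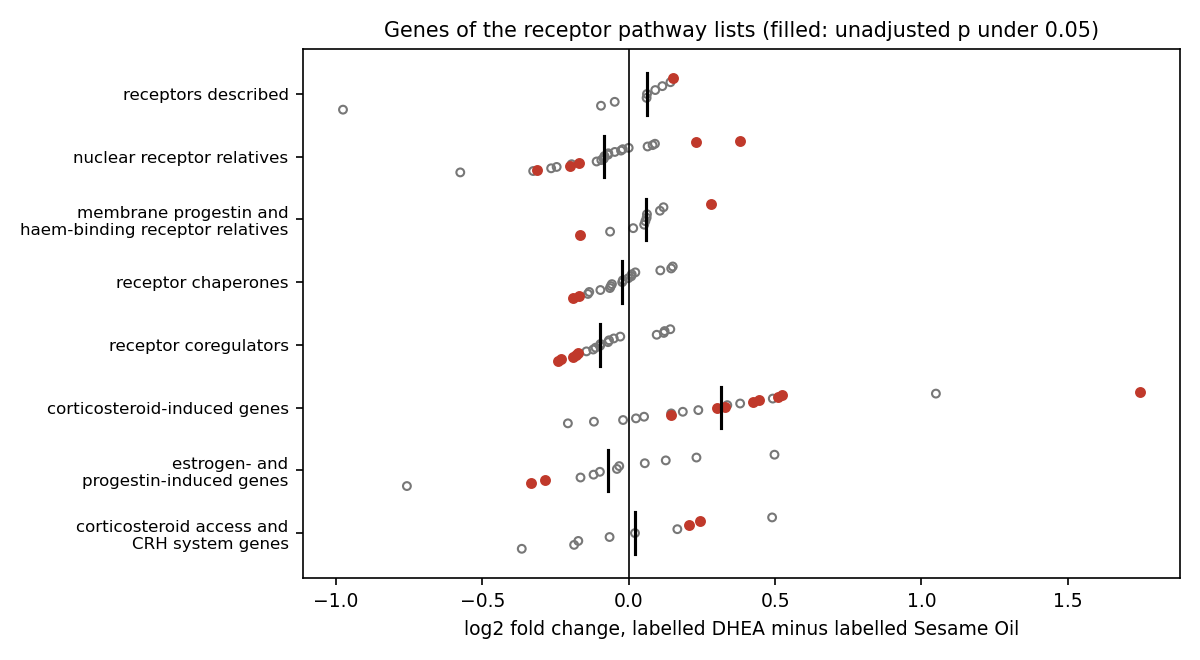
Log2 fold change (DHEA-labelled libraries minus sesame oil) of every gene of the 9 receptors and of the 7 pathway lists, with filled red points for an unadjusted edgeR p under 0.05, open points for the others, and a black bar at each list's median. Corticosteroid-induced genes have their median at 0.31 and 8 filled points to the right of 0, coregulators have theirs at -0.10 with 5 filled points to the left, and no gene passes an adjusted p of 0.05.

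Marker genes of cell types and of neighbouring regions were set beside these values. Markers of the hippocampal fields were detected in every library, and their summed levels overlapped between the groups: 5 CA1 markers, led by Wfs1, summed to 515 ± 45.8 CPM in the DHEA-labelled libraries and 528 ± 28.4 CPM in the oil-labelled libraries, 5 CA2 markers, led by Pcp4, to 211 ± 20.03 and 213 ± 20.1, 5 CA3 markers, led by Cpne4, to 179.8 ± 10.7 and 162 ± 8.62, and 5 dentate granule markers, led by C1ql2, to 269 ± 25.6 and 272 ± 45.8 (SD, n = 4 each). At an unadjusted edgeR p under 0.05, 1 of the CA1 markers, 2 of the CA3 markers and 1 of the dentate markers were higher with the DHEA label. The share higher was 4.82% over all genes tested and 8.08% among those averaging 100 reads or more. Interneuron markers, led by Sst, summed to 691 ± 37.7 and 706 ± 46.0 CPM, with 0 of 6 passing.

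Myelin markers were higher for 9 of 9 genes at an unadjusted edgeR p under 0.05. Their sum was 6717, 8478, 6648 and 6975 CPM in the DHEA-labelled libraries and 5363, 6443, 5338 and 4526 CPM in the oil-labelled libraries, with no overlap (two-sided exact permutation test, p = 0.0286). Astrocyte markers, led by Slc1a2, were higher for 4 of 6 genes, microglia markers for 3 of 6, and endothelial markers, led by Cldn5, for 3 of 6. At that threshold 4.82% of all genes tested and 8.08% of those averaging 100 reads or more were higher with the DHEA label. Astrocyte sums were 5334, 6385, 5729.8 and 5536 CPM against 4636, 5425, 4995 and 5226 CPM, so their groups overlapped only through HipR3 and HipR9. Microglial sums were 359, 420.4, 335 and 316 CPM against 289, 335, 311 and 305 CPM. Endothelial sums were 293, 311, 263 and 299 CPM against 264, 263, 249.9 and 254 CPM. None of these lists had a gene at 0 in every library. They were higher in the same group as Paqr8, the corticosteroid-induced genes, Abcb1a and Hsd11b1, and their part in those values was not tested. The endothelial markers had a median log2 fold change of 0.25, beside 0.24 for the blood-brain barrier gene Abcb1a.

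Markers of neighbouring tissue also differed between libraries. Choroid plexus markers, led by Ttr, summed to 4481, 95.5, 2209 and 4152 CPM in the DHEA-labelled libraries and to 3129, 513, 2039.7 and 2269 CPM in the oil-labelled libraries, so HipR4 and HipR9 held least. Anterior pituitary markers, led by Pomc, were lower for 3 of 8 genes and summed to 3.37, 1.85, 2.14 and 2.35 CPM against 3.53, 6.91, 30.3 and 3.62 CPM, with Fshb at 0 in every library. The pituitary sums did not overlap between the groups, with 3.37 CPM the highest with the DHEA label and 3.53 CPM the lowest with the oil label (two-sided exact permutation test, p = 0.0286). Hypothalamic markers, led by Hdc, were low throughout at 2.86 to 5.47 CPM, with 1 of 7 higher at an unadjusted edgeR p under 0.05. Over all genes tested, 4.82% were higher and 4.49% lower with the DHEA label at that threshold. Sums of thalamic markers, led by Prkcd (87.0 ± 8.78 and 80.0 ± 9.30 CPM), striatal and amygdalar markers, led by Ppp1r1b (97.2 ± 13.8 and 95.4 ± 7.14) and neocortical markers, led by Tshz2 (244 ± 26.6 and 235 ± 56.4) overlapped between the groups.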

How the data were processed

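Per the labels and methods, RNA was extracted with TRIzol and sequenced as paired-end libraries. The authors deposited whole-number read counts per gene and FPKM values calculated from them; per the submitters' processing notes, fastp, HISAT2, HTSeq and the GRCm39 build were used, with versions not given in the sources used here. The deposited counts were analysed with edgeR 4.0.16 in R 4.3.3 (TMM normalization, quasi-likelihood test, 27612 genes with at least 1 count, Benjamini-Hochberg adjustment over all of them). The deposited FPKM values were used for levels between genes. CPM are TMM-normalized. Ratios were compared as log2 of counts + 0.5 by two-sided exact permutation tests. Depth was 31483772 to 38038361 counts per library, and limits and intervals from counts cover counting error only. Groups followed the deposited treatment labels, all columns were mapped to a sample (0 unmapped), and 0 rows lacked a gene name.

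The members, the gene lists and the tests were chosen with earlier results of these data known. Named genes were all members, the 2 most correlated genes of each abundant member, in each list the 2 genes of smallest p in each direction (averaging 10 reads or more) and the gene of highest FPKM, and in each marker list the most abundant gene and any gene at 0. Nr4a3, Ncoa3, Crebbp, Rbfox2, Ncor1, Carm1, Nrip1, Tsc22d3, Sult1a1, Ddit4, Klf9 and Lcn2 were named after their values were seen. Some genes that this rule names are not reported here, although the counts of their lists include them. Alternatives were DESeq2 1.42.0, RLE normalization, a minimum of 10 counts over the libraries, filterByExpr, robust moderation, a prior count of 1, limma 3.58.1 on log2(FPKM + 1) and log2(FPKM + 0.1), a GC correction (lowess, span 0.3), other ratio scales, and omission of each library. The GC correction of the pathway lists was chosen after seeing the data. GC content came from GENCODE vM21 transcripts for 15594 of the 16813 genes averaging 10 reads or more (92.7%) and for all 9 members. The fit was tested on simulated counts. The reference given was GRCm38, so no coordinates were taken for the counted genes. Promoter windows are credited to RefSeq GRCm38.p6. The study's table of differential genes was not used for any value. Its other experiments were not analysed here.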

Additional observations from a re-analysis of the deposited data

Results flagged for a closer look

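Esr1 in HipR10, labelled sesame oil, stood apart from the other 3 libraries of its group. Its level was 4.51 CPM, whereas the others were at 1.90 to 2.32 CPM, and the gap to the nearest library was 0.837 of the range of the group, above Dixon's 95% critical value for 4 samples. This was 1 of 24 groups of values examined, in which chance alone would flag about 1 in 20, or 1.2. The same library held the highest sum of anterior pituitary markers, and the part of that RNA in the Esr1 level was not tested.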

How the results depend on the processing

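No paired analysis was possible because the library titles carry different numbers in each group. The methods name littermates as the controls of the behavioural tests, but no label ties a library to a litter. The count of receptors with an unadjusted p under 0.05, 1 with all libraries, was 2 with robust moderation, 0 with limma on log2(FPKM + 1), 0 with limma on log2(FPKM + 0.1) and 0 after GC correction, and ranged from 0 to 2 when single libraries were left out (2 without HipR7 or HipR11, where 13.4% and 11.9% of all genes passed, and 0 without HipR4, HipR5, HipR10 or HipR9, where 7.26%, 6.53%, 7.48% and 8.25% did). With DESeq2, RLE normalization, a minimum of 10 counts, filterByExpr and a prior count of 1 it was 1. The count over the pathway lists ranged from 16 to 32. Signs turned only with a library left out: Esr1 was 0.02 without HipR3, 0.09 without HipR11 and 0.30 without HipR10 (range -0.27 to 0.30), Gper1 was 0.015 without HipR5 (range -0.21 to 0.015), the log2 difference of the Nr3c2 to Nr3c1 ratio was 0.0072 without HipR11 and 0.047 without HipR10 (range -0.13 to 0.047), and that of the Pgrmc2 to Pgrmc1 ratio was 0.0068 without HipR4 (range -0.065 to 0.0068). The Esr2 to Esr1 difference was -0.34 with FPKM + 0.1 and -1.33 to -0.60 with a library left out, where 4 against 3 libraries cannot give a permutation p below 0.0571. The causes were not tested.

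No receptor had an adjusted p under 0.05 under any alternative that gave one. DESeq2 gave no adjusted p for Esr1, Esr2 and Gper1, and filterByExpr removed Esr2. All DHEA-labelled libraries were deeper, and log2 CPM relative to the gene's mean over libraries correlated with GC content across genes at a Spearman rho of -0.153 to -0.00949 in them and 0.0688 to 0.178 in the oil-labelled libraries (genes are not independent replicates). Depth and labels cannot be told apart. GC correction moved the log2 fold changes of Nr3c1 from 0.14 to 0.08, Pgrmc1 from 0.09 to 0.05, Pgr from 0.06 to 0.03, Gper1 from -0.10 to -0.06 and Esr1 from -0.05 to -0.08, and no receptor changed sign with it. Esr2, Esr1 and Gper1 had the fewest reads and the largest coefficients of variation, and the part of depth in that variation was not tested.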
